A study of Mus musculus with 36 samples.

Results

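The comparison described here set gonads of XX control mouse embryos against gonads of XY control embryos at embryonic stage E11.5, and asked which genes outside the sex chromosomes first differ between the sexes. It used 6 of the 36 RNA-seq libraries of the study, 3 from XX and 3 from XY controls, chosen by the sex, genotype and stage in their labels. The controls were labelled WT, and the cross they came from and the alleles each carried are not given in the sources used here. The KO embryos, which lack the miR-17~92 microRNA cluster, came from a floxed line on C57BL/6 × 129S4/SvJae and the ubiquitous deleter Tg(CAG-cre)1Nagy. Each library pooled 2 pairs of gonads dissected together with the mesonephros, the embryonic kidney beside the gonad, so a value is an average over embryos and over both tissues. The number of tail somites, by which embryos of this day are staged, is not given for the single libraries in the sources used here. The 6 KO libraries of E11.5 (3 XX, 3 XY) entered the statistical fit, where they shared in the low-count filter, library scaling and spread. They and the 6 control libraries of E12.5 are used for 2 side comparisons.

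In mouse, the gonads of both sexes start out alike, as a bipotential primordium. A short pulse of the Y-linked gene Sry in the supporting cells of the XY gonad switches on Sox9, and Sox9 and Fgf9 then drive these cells to become Sertoli cells, which organise the testis. Without Sry, a program that includes Wnt4, Rspo1 and Foxl2 directs the same cells to become pre-granulosa cells of the ovary.

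The 6 control libraries held 17150620 to 34077443 counted reads. Values are CPM, read counts scaled to a common sequencing depth, on library sizes scaled by the trimmed mean of M values, always in the order of replicates 1, 2 and 3. Log2 fold changes are XX minus XY, so that a negative value means higher in XY, and stand in parentheses as value ± SE over 3 against 3 libraries. The FDR is the Benjamini-Hochberg adjusted p of edgeR's quasi-likelihood test over all 14217 genes tested, and a gene is called differentially expressed (a DEG) where it is under 0.05. With 3 against 3 libraries an exact two-sided permutation test of a single gene cannot give a p below 0.1, so that test cannot call any gene. Because whole tissue was measured, fewer cells of a type and less RNA per cell cannot be told apart in any value below.

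Sex-linked genes gave the labelled sex in all 6 libraries. Xist, the RNA that silences 1 X chromosome in XX cells, stood at 1930.0, 1569 and 1724 CPM in XX and 4.23, 3.16 and 3.98 CPM in XY controls. Ddx3y stood at 0.232, 0.234 and 0.263 CPM in XX and 119.9, 111 and 114 CPM in XY controls, and Kdm5d, Uty and Eif2s3y showed the same split. Within the XY controls Eif2s3y varied, at 108.6, 55.5 and 92.7 CPM, and was lowest in XY control 2. Sex-linked genes are set aside from here on: all 6 Y-linked genes tested were called higher in XY, and 13 of 517 X-linked genes were called, 11 of them higher in XX. Genes of the early gonad (Wt1 at 509.9 to 578 CPM) and of the mesonephros (Pax2 at 24.2 to 55.5 CPM) were present in every library.

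One library must be named before the results. XY control 2 lay nearly as close to the XX controls as they did to each other. Its root mean square log2 difference over autosomal genes was 0.331, 0.335 and 0.372 to the 3 XX controls, against 0.287 to 0.340 among these and 0.466 to 0.566 between the XX controls and XY controls 1 or 3. Its difference from the other XY controls was larger, at 0.482 and 0.419. The number of called genes is therefore given with and without it, as it is for some of the gene lists. Fold changes of single genes come from the fit with XY control 2 unless said.

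Of 13693 autosomal genes tested, 107 were called, 40 higher in XX (0.292% of those tested) and 67 higher in XY (0.489%), spread over 18 autosomes. The changes toward XY were larger: the median size on the log2 scale was 1.45 for genes higher in XY, of which 47 differed at least 2-fold and 17 at least 4-fold, and 1.04 for genes higher in XX, of which 22 differed at least 2-fold and 5 at least 4-fold. In all 107 genes the XX and XY libraries did not overlap, which also held for 8.69% of all autosomal genes toward XX and 8.62% toward XY. In the plot of fold change against mean level, the called genes of low level lay farthest from 0. At an unadjusted p under 0.05, 2448 autosomal genes differed.

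**Figure D1:**
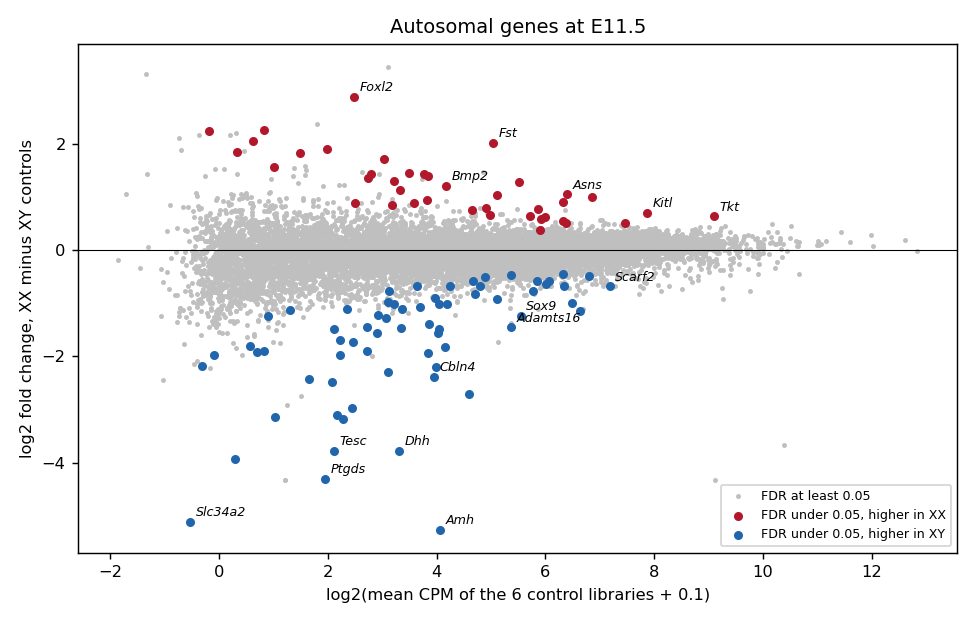
Log2 fold change of XX minus XY controls (vertical axis) against the log2 mean CPM of the 6 control libraries plus 0.1 (horizontal axis) for the 13693 autosomal genes tested. Red points are the 40 genes called higher in XX, blue points the 67 called higher in XY, and grey points genes that were not called; the blue points reach further from 0 than the red.

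Genes of Sertoli cells were prominent among those higher in XY. Of 27 tested genes of a list of Sertoli cell genes, 15 were called higher in XY, beside 0.489% of all autosomal genes. The list's median log2 fold change was -1.41, beside -0.01 over all autosomal genes. Toward XX, 0 members were called by edgeR, DESeq2 or limma voom, and 0 had an unadjusted edgeR p under 0.05. Summed over the list, the XX controls held 404, 372 and 364 CPM and the XY controls 504, 719 and 876 CPM, without overlap.

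Sry itself was at 3.77, 4.65 and 4.696 CPM in the XY controls, with 1 read in all in the XX controls. Sox9, the transcription factor that commits supporting cells to the Sertoli fate (chr11:112782224-112787760, plus strand, GRCm38), stood at 33.4, 28.9 and 21.5 CPM in XX and 55.03, 76.3 and 65.5 CPM in XY controls. Each XY control was above each XX control, although Sox9 was well detected in XX (-1.23 ± 0.18, FDR = 0.00210). Its value without XY control 2 was -1.11 (FDR = 0.00244), and Sox9 stayed called whichever control library was left out.

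Fgf9, the growth factor that maintains Sox9, showed a tight XX group and a spread XY group, with 6.74, 6.28 and 6.36 CPM in XX and 10.98, 13.8 and 17.03 CPM in XY controls (-1.11 ± 0.19, FDR = 0.00830). Leaving out a single library ended its call in 3 of 6 cases, none of them XY control 2. Spry4, a feedback inhibitor of ERK signalling that FGF receptors induce, was higher in XY as well, at 14.8, 13.9 and 14.9 CPM in XX and 18.1, 25.1 and 26.4 CPM in XY controls (-0.68 ± 0.14, FDR = 0.0306). Spry4 was called in 2 of the 6 fits without 1 library, those without XY control 1 or 2. These were the 2 called of 15 tested genes of FGF and ERK signalling, beside 0.489% of all autosomal genes called higher in XY.

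The largest fold change belonged to Amh. Amh, the hormone that removes the Müllerian ducts (chr10:80805243-80807648, plus strand), stood at 1.05, 0.964 and 0.473 CPM in XX and 5.33, 29.8 and 62.4 CPM in XY controls. XY control 1 was lowest and XY control 3 highest of a wide XY range, yet all were above the XX range (-5.26 ± 0.84, FDR = 0.0182). Without any single XX control, the difference of Amh was not called. Dhh, the hedgehog ligand by which Sertoli cells signal to Leydig cell precursors, ordered the libraries in the same way, with 1.68, 1.34 and 0.999 CPM in XX and 6.06, 17.7 and 31.3 CPM in XY controls (-3.77 ± 0.58, FDR = 0.00830). Its call was lost without XX control 2 or 3. About 25.2% of the exon bases of Dhh are also covered on the opposite strand by Gm49442, and 12.4% on its own strand by Rhebl1. How the counting used strand is not given in the sources used here.

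Ptgds, the synthase of prostaglandin D2, a signal that recruits further Sertoli cells, was close to absent in XX with 0.232, 0.321 and 0.526 CPM. In XY it reached 3.17, 5.69 and 12.7 CPM, again highest in XY control 3 (-4.30 ± 0.58, FDR = 0.00135). Cst9, a cystatin known from early Sertoli cells, stood at 0.930, 0.906 and 0.999 CPM in XX and 4.18, 7.14 and 14.3 CPM in XY controls (-3.17 ± 0.42, FDR = 0.000888). Tesc, which encodes the calcium-binding protein tescalcin and was first described in the embryonic testis, stood at 0.407, 0.643 and 0.631 CPM in XX and 4.36, 7.66 and 11.7 CPM in XY controls (-3.78 ± 0.39, FDR = 8.36e-05). Ptgds, Cst9 and Tesc all stayed called in each of the 6 fits that left out 1 control library.

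Hsd17b3, the enzyme that makes testosterone from androstenedione and that fetal Sertoli cells express, stood at 0.465, 0.468 and 0.210 CPM in XX and 3.22, 2.75 and 4.46 CPM in XY controls (-3.13 ± 0.34, FDR = 0.000126). Cbln4, a secreted protein of the cerebellin family, was measured at 5.98, 4.32 and 4.68 CPM in XX and 20.7, 25.1 and 31.8 CPM in XY controls (-2.38 ± 0.23, FDR = 3.16e-05). Its relative Cbln1 moved the same way, from 10.2, 7.77 and 5.52 CPM in XX to 21.5, 27.9 and 33.2 CPM in XY (-1.82 ± 0.26, FDR = 0.00314). Mmd2, a gene of early Sertoli cells, stood at 1.16, 1.37 and 0.999 CPM in XX and 5.83, 7.74 and 14.8 CPM in XY controls (-2.98 ± 0.35, FDR = 0.000271).

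Col9a3, a collagen IX chain of the early testis, had 9.295, 5.55 and 4.58 CPM in XX and 24.2, 35.1 and 65.8 CPM in XY controls (-2.70 ± 0.45, FDR = 0.0163). Aard, a testis gene, had 6.22, 5.11 and 5.68 CPM in XX and 11.1, 24.2 and 42.2 CPM in XY controls (-2.19 ± 0.37, FDR = 0.0140), and Mro, the gene of maestro on chromosome 18, had 2.27, 3.01 and 2.16 CPM in XX and 8.59, 6.697 and 9.58 CPM in XY controls (-1.72 ± 0.28, FDR = 0.00473). Cyp26b1, the enzyme that breaks down retinoic acid and keeps germ cells of the testis from entering meiosis, showed the smallest change of the 15, from 66.1, 65.01 and 57.2 CPM in XX to 80.8, 109.9 and 108 CPM in XY (-0.67 ± 0.12, FDR = 0.0116). Aard, Col9a3 and Cyp26b1 lost their call in 3, 2 and 2 of the 6 fits that left out 1 control library. Sox8, the close relative of Sox9, did not overlap between the sexes but was not called, with 4.07, 2.95 and 1.95 CPM in XX and 7.12, 7.22 and 9.44 CPM in XY controls (-1.41 ± 0.35, FDR = 0.0873), while without XY control 2 it was, at -1.47 (FDR = 0.0246). Dmrt1 (0.28, FDR = 0.447) was not called.

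Among the 15 called Sertoli genes, XY control 1 was the lowest XY library in 13 and XY control 3 the highest in 13, while XY control 2 lay between them in 11. Over all 67 genes higher in XY, XY control 3 was highest in 51, while XY control 1 was lowest in 40 and XY control 2 in 26. Among the 40 genes higher in XX, XY control 2 was the highest XY library, nearest to XX, in 26. The median coefficient of variation of the 67 genes higher in XY was 22.9% among the XY and 12.6% among the XX controls, beside 13.1% and 7.89% over all autosomal genes. The plot of CPM by library shows the order of the XY libraries gene by gene.

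**Figure D2:**
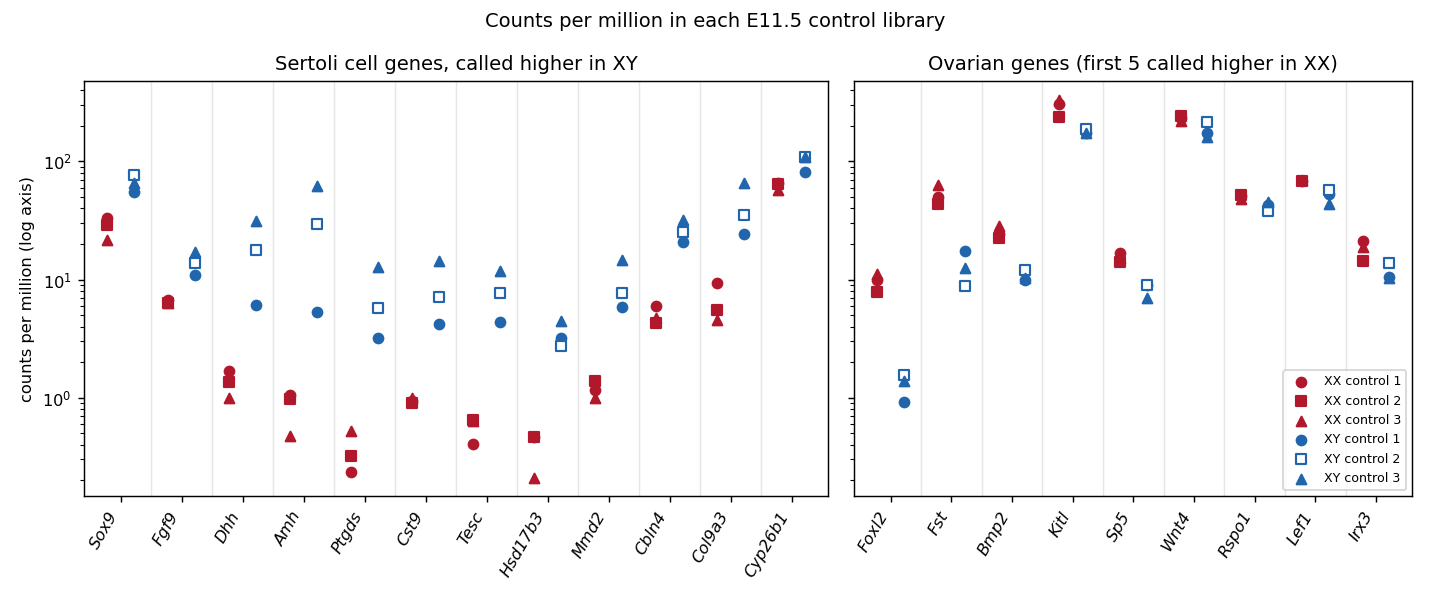
CPM (log axis) of 12 called Sertoli cell genes and of 9 ovarian genes in each of the 3 XX (red) and 3 XY (blue) control libraries at E11.5, with 1 point per library and XY control 2 as open squares. For Amh the XY points run from 5.33 to 62.4 CPM and the XX points from 0.473 to 1.05 CPM, while for Wnt4 and Rspo1 the 2 sexes lie close together.

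Genes higher in XY outside the list of Sertoli genes included enzymes, matrix proteins and signalling genes. Adamts16, a secreted metalloprotease of the developing gonad, stood at 21.6, 22.5 and 22.2 CPM in XX and 47.2, 54.95 and 79.2 CPM in XY controls (-1.45 ± 0.16, FDR = 0.000121), and its XX libraries were nearly identical. Spp1, the matrix protein osteopontin, had 8.71, 7.39 and 9.84 CPM in XX and 17.9, 22.2 and 32.1 CPM in XY controls (-1.48 ± 0.20, FDR = 0.000979), and Col27a1, a fibrillar collagen chain, had 69.2, 54.9 and 55.5 CPM in XX and 117, 92.7 and 147 CPM in XY controls (-0.99 ± 0.15, FDR = 0.00229). These 3 genes stayed called in each of the 6 fits without 1 control library.

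Kif19a, a kinesin that shortens microtubules in cilia, had 0.523, 0.993 and 1.16 CPM in XX and 4.87, 8.52 and 10.2 CPM in XY controls (-3.11 ± 0.46, FDR = 0.00253). Fzd9, a Frizzled receptor, had 0.813, 1.14 and 0.842 CPM in XX and 3.12, 5.62 and 6.69 CPM in XY controls (-2.43 ± 0.33, FDR = 0.000888). Acvr1c, the type I receptor ALK7 for Nodal and some activins, differed with little spread in either sex, at 4.76, 3.86 and 4.84 CPM in XX and 10.01, 9.93 and 11.3 CPM in XY controls (-1.22 ± 0.19, FDR = 0.00335). Lefty1 and Lefty2, secreted inhibitors of Nodal, were called as well. Lefty2 stood at 4.42, 3.33 and 3.47 CPM in XX and 6.25, 9.301 and 17.5 CPM in XY controls (-1.56 ± 0.33, FDR = 0.0358), and Lefty1 at 0.813, 0.730 and 0.579 CPM in XX and 1.84, 1.86 and 4.27 CPM in XY controls (-1.89 ± 0.39, FDR = 0.0300). Both were called in 2 of the 6 fits without 1 library.

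Gstm6, a glutathione S-transferase, had 6.45, 5.64 and 5.68 CPM in XX and 14.6, 20.9 and 32.2 CPM in XY controls (-1.93 ± 0.26, FDR = 0.000888). Lrp4, a receptor that modulates WNT and agrin signalling, differed less and with little spread, at 43.5, 36.3 and 41.2 CPM in XX and 68.1, 65.1 and 71.8 CPM in XY controls (-0.76 ± 0.10, FDR = 0.00104). St3gal4, a sialyltransferase, did so too, at 25.4, 23.5 and 22.6 CPM in XX and 41.1, 41.9 and 52.3 CPM in XY controls (-0.92 ± 0.11, FDR = 0.000243). Atg9b, a protein of autophagosome formation, had 2.96, 2.45 and 2.84 CPM in XX and 11.9, 8.296 and 10.3 CPM in XY controls (-1.89 ± 0.21, FDR = 0.000166). Further genes called in each of the 6 fits without 1 library were Zan (-2.48, FDR = 0.000556), Cnga1 (-1.70, FDR = 0.00198), Acap1 (-1.49, FDR = 0.00364), Gldn (-1.47, FDR = 0.000888) and Dusp15 (-1.45, FDR = 0.00422).

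Some of the calls rest on few reads. Slc34a2, a sodium-phosphate cotransporter, was at 0, 0.0292 and 0.0526 CPM in XX, which is at most 1 read per library, and at 0.919, 1.45 and 1.09 CPM in XY (FDR = 0.00258). Mt3, a metallothionein, stood at 0.0581, 0.0584 and 0.316 CPM in XX and 1.33, 1.19 and 3.79 CPM in XY controls (FDR = 0.0153). With so few reads in XX their fitted fold changes depend on how counts near 0 are treated and are not given.

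Fewer genes were higher in XX, and Foxl2, the forkhead factor that maintains granulosa cells (chr9:98955288-98958543, plus strand), led them. Foxl2 stood at 9.93, 7.86 and 11.2 CPM in XX and 0.919, 1.56 and 1.38 CPM in XY controls, with a wide gap between the sexes (2.89 ± 0.27, FDR = 3.16e-05). Its antisense neighbour Foxl2os was called as well, at 2.44, 2.63 and 3.52 CPM in XX and 1.29, 0.595 and 1.04 CPM in XY controls (1.56 ± 0.34, FDR = 0.0417). The 2 genes share 12 exon bases, or 0.369% of Foxl2. Fst, the activin-binding protein follistatin of the early ovary, stood at 50.3, 43.3 and 63.7 CPM in XX and 17.4, 8.89 and 12.52 CPM in XY controls, with XY control 2 lowest of all (2.02 ± 0.26, FDR = 0.00145).

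Bmp2, a secreted growth factor of the ovary, had 24.2, 22.3 and 28.6 CPM in XX and 9.97, 12.1 and 10.2 CPM in XY controls (1.21 ± 0.17, FDR = 0.00114). Foxl2, Fst and Bmp2 stayed called in each of the 6 fits that left out 1 control library. Kitl, the ligand of the receptor KIT on germ cells, had 305, 236 and 332 CPM in XX and 175, 187 and 173 CPM in XY controls (0.71 ± 0.13, FDR = 0.0102), and Sp5, a transcription factor that WNT signalling induces directly, had 16.6, 14.1 and 15.4 CPM in XX and 8.96, 8.93 and 7.02 CPM in XY controls (0.88 ± 0.17, FDR = 0.0203). Kitl was called in 3 and Sp5 in 2 of those 6 fits.

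These 5 were the called members of 26 tested genes of pre-granulosa cells and ovary, beside 0.292% of all autosomal genes called higher in XX. The list's median log2 fold change was 0.25. Toward XY, edgeR and DESeq2 called 0 and limma voom 1, and 1 had an unadjusted edgeR p under 0.05. Without XY control 2, 10 were called higher in XX, beside 6.96% of all autosomal genes. The summed level of the list was 3232, 3133 and 3253 CPM in the XX and 2553, 3005 and 2518 CPM in the XY controls, which did not overlap, with XY control 2 nearest to XX.

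Wnt4, whose loss masculinises the XX gonad, was not called at this stage, with 233, 244 and 221 CPM in XX and 173, 215 and 159 CPM in XY controls (0.35 ± 0.11, FDR = 0.144). XY control 2 was close to the XX range, and without it the difference was called, at 0.48 (FDR = 0.00553). Rspo1, which potentiates WNT signalling, stood at 50.5, 51.8 and 47.9 CPM in XX and 42.8, 38.2 and 45.2 CPM in XY controls (0.25 ± 0.10, FDR = 0.210). Rspo1 was not called without XY control 2 either, at 0.19 (FDR = 0.217). Lef1, a transcriptional partner of beta-catenin, had 68.5, 68.1 and 70.1 CPM in XX and 53.4, 57.7 and 43.4 CPM in XY controls (0.42 ± 0.14, FDR = 0.165), and without XY control 2 it was called, at 0.51 (FDR = 0.0351). Irx3 was not called with all libraries (0.64, FDR = 0.134) and was called without XY control 2 (0.80, FDR = 0.0156). Lhx2 was called in neither fit (-1.24 (FDR = 0.397), and -1.50 (FDR = 0.241)). Of 27 tested genes of the WNT and beta-catenin pathway, Sp5 alone was called, beside 0.292% of all autosomal genes called higher in XX. Without XY control 2, 4 were called higher in XX, beside 6.96% of all autosomal genes.

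The promoters of the called genes were searched for letters that SOX proteins bind, since Sry and Sox9 belong to that family. RefSeq promoters (250 bases before to 50 after the start, GRCm38.p6) were at hand for 29 genes higher in XX and 47 higher in XY, and AACAAT or ACAAAG was sought on both strands. ACAAAG was present in 12 of the 47 genes higher in XY (25.5%) and 5 of the 29 higher in XX (17.2%). Of all 10709 autosomal genes tested with a promoter, 16.8% held it. AACAAT was present in 3 (6.38%) and 3 (10.3%) of these genes, and in 7.11% of all. These shares are descriptions of short windows and say nothing of binding. For 2 called Sertoli genes and 1 called WNT-induced gene, 1 match before the start is shown with the motif in capitals, each read in the direction of its gene, in windows on chr2:172043691-172043716, chr2:148834983-148835012 and chr2:70474690-70474719. The window of Sp5 also holds, in lower case, an ACAAAG match on the other strand at position -212 from the start.
Cbln4 (AACAAT on the other strand): tcactatgATTGTTcctgcccctgat
Cst9 (ACAAAG on the other strand): tgaagacgttgaCTTTGTtttttccttagg
Sp5 (ACAAAG as written): ttcctagagataACAAAGacactttgtcac

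Outside these lists, the genes higher in XX were of varied function. Chrm4, a muscarinic acetylcholine receptor, stood at 64.2, 56.6 and 73.6 CPM in XX and 35.3, 21.4 and 23.5 CPM in XY controls (1.28 ± 0.20, FDR = 0.00473). Slitrk1, a transmembrane protein of neurons, had 22.3, 17.4 and 19.4 CPM in XX and 8.31, 6.101 and 7.45 CPM in XY controls (1.43 ± 0.19, FDR = 0.000888), and Scrt2, a zinc finger repressor of neural cells, had 16.8, 15.6 and 16.3 CPM in XX and 8.04, 4.39 and 5.41 CPM in XY controls (1.45 ± 0.23, FDR = 0.00350). The sexes stood well apart in each of these 3 genes, and XY control 1 was the highest XY library in each.

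Dclk1, a kinase that binds microtubules, stood at 167, 137 and 163 CPM in XX and 78.6, 83.6 and 70.01 CPM in XY controls (1.01 ± 0.10, FDR = 5.35e-05). Asns, the synthetase of asparagine, stood at 125, 100.1 and 116 CPM in XX and 54.8, 56.8 and 52.8 CPM in XY controls (1.05 ± 0.11, FDR = 0.000118), with little spread among the XY libraries. Pank1, which starts the synthesis of coenzyme A, had 109, 94.4 and 110.2 CPM in XX and 52.7, 62.8 and 51.2 CPM in XY controls (0.91 ± 0.11, FDR = 0.000478). Csgalnact1, an enzyme of chondroitin sulfate synthesis, had 21.96, 17.01 and 23.3 CPM in XX and 7.58, 8.33 and 7.73 CPM in XY controls (1.39 ± 0.17, FDR = 0.000310).

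Rnf152, a lysosomal ubiquitin ligase, had 13.4, 7.66 and 16.3 CPM in XX and 2.94, 4.46 and 3.89 CPM in XY controls (1.71 ± 0.28, FDR = 0.00430), and Kcng4, a potassium channel subunit, had 3.14, 2.22 and 2.95 CPM in XX and 0.551, 0.446 and 0.711 CPM in XY controls (2.27 ± 0.38, FDR = 0.00641). Pld1, a phospholipase D, had 48.1, 37.5 and 54.01 CPM in XX and 25.5, 23.5 and 19.1 CPM in XY controls (1.03 ± 0.15, FDR = 0.00200). Klhl5 (0.63, FDR = 0.00314) and Frmd6 (0.64, FDR = 0.00411) complete the 14 genes higher in XX that were called in each of the 6 fits without 1 library, beside 24 higher in XY.

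Other genes of the 10 largest changes toward XX were low in level and lost their call when some single libraries were left out. They were Tshr, the thyrotropin receptor (1.84, FDR = 0.0169), Cacna1i, a T-type calcium channel (1.84, FDR = 0.0109), Sprr2d (1.91, FDR = 0.0178), Vgll2 (2.06, FDR = 0.0468) and Ugt2b36 (2.24, FDR = 0.0469). Sprr2d stood at 5.69, 5.08 and 7.63 CPM in XX and 1.19, 2.38 and 1.23 CPM in XY controls, and Ugt2b36 at 1.801, 1.08 and 0.947 CPM in XX and 0.413, 0.112 and 0.285 CPM in XY controls. Maf, a transcription factor of interstitial cells, was the called gene toward XX of 16 genes of fetal Leydig and interstitial cells, with 95.7, 94.8 and 93.6 CPM in XX and 63.7, 75.04 and 55.5 CPM in XY controls (0.55 ± 0.11, FDR = 0.0260). Maf was called in 1 of the 6 fits without 1 library, the one without XY control 2. Hsd17b3, given above, was the called gene toward XY. Over all autosomal genes 0.292% were called toward XX and 0.489% toward XY. Without XY control 2, 4 of the 16 were called toward XY, beside 10.6% of all autosomal genes.

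Transcription factors of the bipotential gonad were not called. By edgeR 0 of 16 tested were called, while 5 had an unadjusted p under 0.05, DESeq2 called 1 and limma voom called 4. Of all 13693 autosomal genes tested, 2448 had such a p, and edgeR called 107, DESeq2 414 and limma voom 1880. With so few genes called by edgeR, a count of 0 does not set this list apart. Without XY control 2, 3 were called higher in XX and 1 higher in XY, beside 6.96% and 10.6% of all autosomal genes. Nr5a1, the regulator of steroidogenic and supporting cells, stood at 101, 93.6 and 114 CPM in XX and 106, 131 and 137 CPM in XY controls (-0.28 ± 0.15, FDR = 0.334). Gata4 stood at 171, 139.8 and 171 CPM in XX and 145, 189 and 179.9 CPM in XY controls (-0.10 ± 0.13, FDR = 0.727), Wt1 at 549, 541 and 578 CPM in XX and 544, 533 and 509.9 CPM in XY controls (0.07 ± 0.10, FDR = 0.720), and Lhx9 at 162, 145 and 199.8 CPM in XX and 137, 123 and 135 CPM in XY controls (0.36 ± 0.13, FDR = 0.186). Emx2 was higher in each XX than in each XY library without being called, at 233, 240.3 and 240.1 CPM in XX and 166, 190.0 and 170.2 CPM in XY controls (0.44 ± 0.14, FDR = 0.142), while without XY control 2 it was called, at 0.50 (FDR = 0.0382).

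Of 17 genes that act upstream of Sry, 0 were called by edgeR, 0 by DESeq2 and 1 by limma voom. Of all 13693 autosomal genes these called 107, 414 and 1880. An unadjusted edgeR p under 0.05 held for 2, beside 2448 of 13693 autosomal genes. Without XY control 2, 1 was called, higher in XX, beside 6.96% of all autosomal genes. Gadd45g, which activates the kinase cascade that induces Sry, stood at 55.4, 54.1 and 43.4 CPM in XX and 80.3, 44.1 and 50.9 CPM in XY controls (-0.20 ± 0.21, FDR = 0.637), and XY control 1 held the highest value.

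Markers of other cell types were read for the same libraries. Of the 22 mesonephric tubule and duct genes, edgeR called 0, DESeq2 1 and limma voom 8, beside 107, 414 and 1880 of all 13693 autosomal genes. An unadjusted edgeR p under 0.05 held for 3, beside 2448 of 13693 autosomal genes. Without XY control 2, 11 of the 22 were called higher in XX, with a median log2 fold change of 0.58, beside 6.96% of all autosomal genes. Their summed level was 902, 1011 and 932 CPM in the XX controls and 663, 990 and 648 CPM in XY controls 1, 2 and 3, so that XY controls 1 and 3 lay below the XX range and XY control 2 inside it. In 16 of the 22 genes both XY controls 1 and 3 were below all XX controls, as in 24.6% of all autosomal genes. In 20 XY control 2 was above XY controls 1 and 3, as in 38.0% of all autosomal genes. The part of the mesonephros in the differences between the sexes was not tested.

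The summed germ cell genes ran from 256 to 574 CPM in XX and from 252 to 359 CPM in XY controls, with XX control 3 highest. The 12 further lists were of germ cells, erythroid cells, endothelium, macrophages, nerve, muscle, cartilage, gut, adrenal cortex, the cell cycle, immediate early genes and hypoxia. Of their 150 tested genes edgeR called 0, DESeq2 3 and limma voom 8, beside 107, 414 and 1880 of all 13693 autosomal genes. Among the 150 genes 15 had an unadjusted edgeR p under 0.05, beside 2448 of 13693 autosomal genes, and their median log2 fold change was 0.03. Without XY control 2, 11 were called, beside 2403 of 13673 autosomal genes.

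The number of called genes depended strongly on XY control 2. Without it, 2403 autosomal genes were called, 952 higher in XX (6.96% of those tested) and 1451 higher in XY (10.6%). Of the 107 genes called with all libraries, 104 were called in the same direction and 3 (Slc34a2, Rnase1 and Pnmt) fell under the filter on low counts. The other 2299 genes differed little, with a median size of 0.50 on the log2 scale, and 88.4% were under 2-fold. In 512 of the 912 that were then higher in XX and in 995 of the 1387 that were then higher in XY, XY control 2 lay inside the XX range or beyond it. These genes were chosen because they were not called with XY control 2 included. Its place in them was therefore largely set by the choice. Leaving out any other control library gave 46 to 100 autosomal DEGs: 59, 61 and 46 without XX controls 1, 2 and 3, 100 without XY control 1 and 50 without XY control 3, as the plot of calls by library shows.

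**Figure D3:**
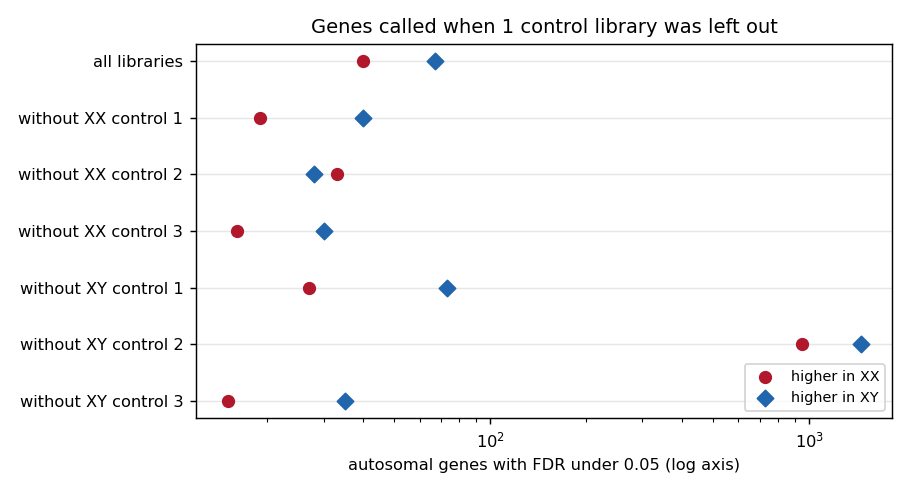
Number of autosomal genes called higher in XX (red circles) and higher in XY (blue diamonds) on a log axis, with all libraries and with 1 of the 6 control libraries left out. Leaving out XY control 2 gave 952 and 1451 genes, against 40 and 67 with all libraries, while each other omission gave 100 genes or fewer in all.

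Of the genes not called with all libraries but called without XY control 2, the largest changes toward XY were in Mir6236, Lars2 and the small RNA genes Rmrp and Rpph1. Lars2 stood at 179, 176 and 232 CPM in XX and 462, 748 and 6273 CPM in XY controls and Mir6236 at 57.8, 45.3 and 55.7 CPM in XX and 177, 251 and 2745 CPM in XY controls. In both, XY control 3 was far above all other libraries, XY control 2 was above XY control 1, and without XY control 2 the differences were -4.11 (FDR = 0.0199) and -4.79 (FDR = 0.0166). Both were also called without XY control 3, with smaller differences of -1.64 (FDR = 0.00157) and -2.02 (FDR = 0.00749). Whether reads of ribosomal RNA entered the counts of Lars2 and Mir6236 was not tested. Rmrp, counted identically for a pair of overlapping gene models, stood at 0.116, 0.321 and 0.105 CPM in XX and 1.06, 0.781 and 10.9 CPM in XY controls, and 73.0% of the exon bases of Rpph1 lie in Ccnb1ip1, so reads of these 2 genes cannot be assigned with certainty.

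Toward XX, the rule named Hoxd12, Hdc, Hnf4a, Nos1 and Dcdc2a. Hnf4a, a regulator of proximal tubule cells, stood at 13.8, 17.6 and 19.1 CPM in XX and 7.44, 18.8 and 6.403 CPM in XY controls, with XY control 2 among the XX controls (0.62 (FDR = 0.352) with all libraries, 1.28 (FDR = 0.00204) without it). Dcdc2a, a gene of ciliated epithelia, stood at 35.96, 38.7 and 39.1 CPM in XX and 16.8, 39.2 and 15.98 CPM in XY controls, with XY control 2 at the top of the XX range. Hdc, the synthase of histamine, had 13.2, 18.1 and 18.6 CPM in XX and 6.38, 15.8 and 6.36 CPM in XY controls.

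Where the mean level reached 20 CPM, XY control 2 stood farthest below both other XY controls in 4 non-coding RNAs, Malat1, Mir17hg, Snhg20 and Miat, and in Spaca6. Malat1, an abundant nuclear RNA, stood at 804, 596 and 534 CPM in XX and 1410.4, 585 and 1301 CPM in XY controls. Mir17hg, the transcript from which the miR-17~92 microRNAs are cut, stood at 19.2, 22.1 and 20.7 CPM in XX and 44.6, 17.6 and 39.4 CPM in XY controls, so that XY control 2 was below every XX control and the other XY controls were above (-0.70 (FDR = 0.192) with all libraries, -1.02 (FDR = 4.66e-05) without XY control 2). Genes in which it stood far above both included Dcdc2a, Lrp2, Frem2 and Lpp. Lrp2, the endocytic receptor megalin of tubule epithelium, stood at 57.9, 63.6 and 69.9 CPM in XX and 40.3, 70.8 and 34.96 CPM in XY controls.

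Further non-coding RNAs and epithelial genes, chosen after their values were seen, are shown in the plot of genes that set XY control 2 apart. Meg3, an imprinted non-coding RNA, stood at 493, 398 and 388 CPM in XX and 1077, 425 and 915 CPM in XY controls, and Snhg1 at 64.7, 69.2 and 62.7 CPM in XX and 153, 57.0 and 112 CPM in XY controls. In the opposite direction, Cdh1, the epithelial cadherin, stood at 55.5, 71.3 and 66.1 CPM in XX and 44.8, 73.3 and 30.5 CPM in XY controls, and Pax2, a factor of the nephric duct, at 48.4, 55.5 and 41.97 CPM in XX and 30.7, 45.6 and 24.2 CPM in XY controls. In 11 of the 15 called Sertoli genes, XY control 2 lay between XY controls 1 and 3. Those calls were made with XY control 2 included, so its place there was partly set by the choice of genes. Whether dissection, staging or RNA handling moved with the non-coding RNAs and epithelial genes was not tested.

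**Figure D4:**
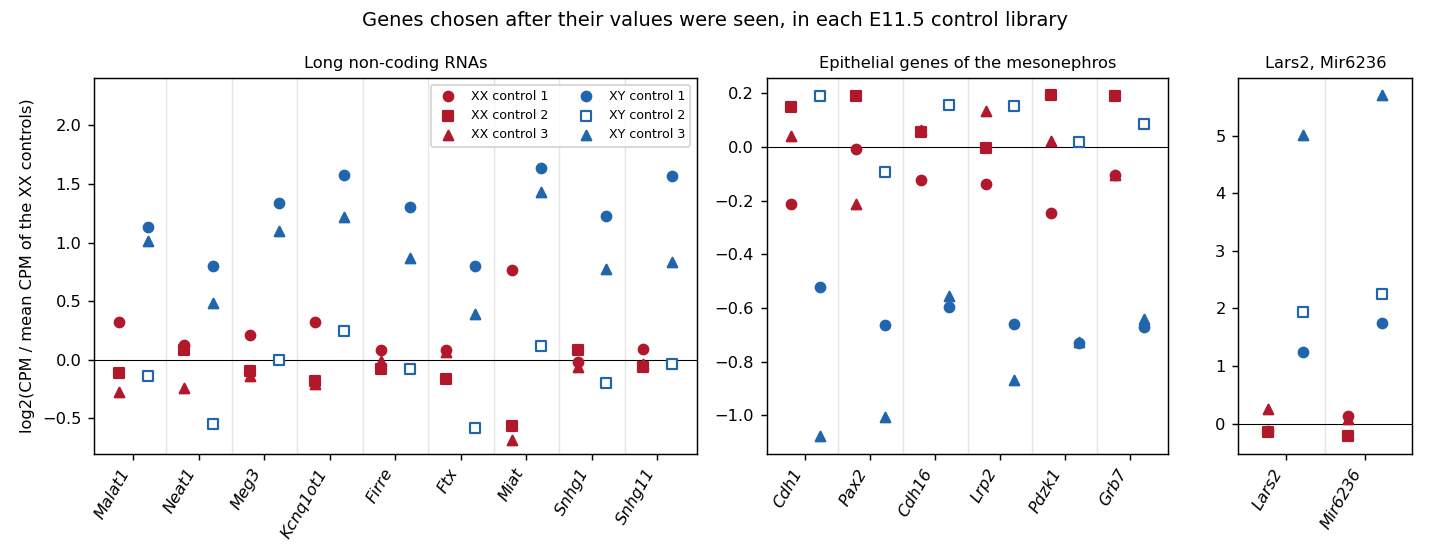
Log2 of the CPM in each control library over the mean CPM of the 3 XX controls, for 9 long non-coding RNAs, 6 epithelial genes of the mesonephros, and Lars2 and Mir6236, all chosen after their values were seen. Each panel has its own vertical scale, and Firre and Ftx are X-linked. XY control 2 (open squares) lies near the XX controls in the first 2 groups, or below them for Neat1 and Ftx, while XY controls 1 and 3 lie above them in the first and below them in the second, and in the last group XY control 3 lies far above the rest.

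The same contrast was read at E12.5, in other libraries, made from the gonad without mesonephros and with another library kit, so that stage cannot be told apart from tissue and kit. At E12.5, 11.1% of the autosomal genes tested were called higher in XX and 12.4% higher in XY. Of the 40 genes higher in XX at E11.5, 39 were called in the same direction at E12.5, and 36 of these had a larger change, with a median log2 fold change of 1.99 after 1.04. The exception was Maf, at 0.05 (FDR = 0.847). Foxl2 moved to 5.59 (FDR = 6.91e-08), Fst to 7.57 (FDR = 2.61e-10), Bmp2 to 2.51 (FDR = 6.91e-08), Scrt2 to 7.47 (FDR = 2.04e-08) and Chrm4 to 6.85 (FDR = 7.07e-10).

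Of the 67 genes higher in XY, 66 were tested at E12.5 and 52 were called in the same direction, 49 of them larger, with a median of -2.21 after -1.45. Sox9 moved to -4.33 (FDR = 2.38e-07), Amh to -10.46 (FDR = 1.33e-09), Cyp26b1 to -4.99 (FDR = 7.02e-08) and Ptgds to -7.63 (FDR = 4.98e-10). Another 2 genes were called in the opposite direction: Dct, an enzyme of melanin synthesis, at 1.36 (FDR = 0.000989), and Pitpnm3, a phosphatidylinositol transfer protein, at 1.26 (FDR = 0.000743). The remaining 12 were not called, among them Atg9b (-0.14, FDR = 0.810), Acvr1c (-0.67, FDR = 0.219), Scarf2 (-0.61, FDR = 0.281) and Scube2 (0.12, FDR = 0.803), and Etv2 was not tested there.

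Wnt4 (2.46, FDR = 5.80e-06), Rspo1 (1.90, FDR = 1.88e-06), Lef1 (1.42, FDR = 1.19e-05), Irx3 (5.14, FDR = 5.06e-08), Emx2 (1.77, FDR = 7.86e-07) and Sox8 (-4.22, FDR = 1.73e-08), none of them called at E11.5 with all libraries, were called at E12.5. Of the genes called at E11.5 without XY control 2 but not with all libraries, 17.8% of the 906 higher in XX were called in the same and 8.72% in the opposite direction at E12.5. For the 1356 higher in XY the shares were 7.45% and 7.67%, both below the 12.4% and 11.1% of all autosomal genes.

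**Figure D5:**
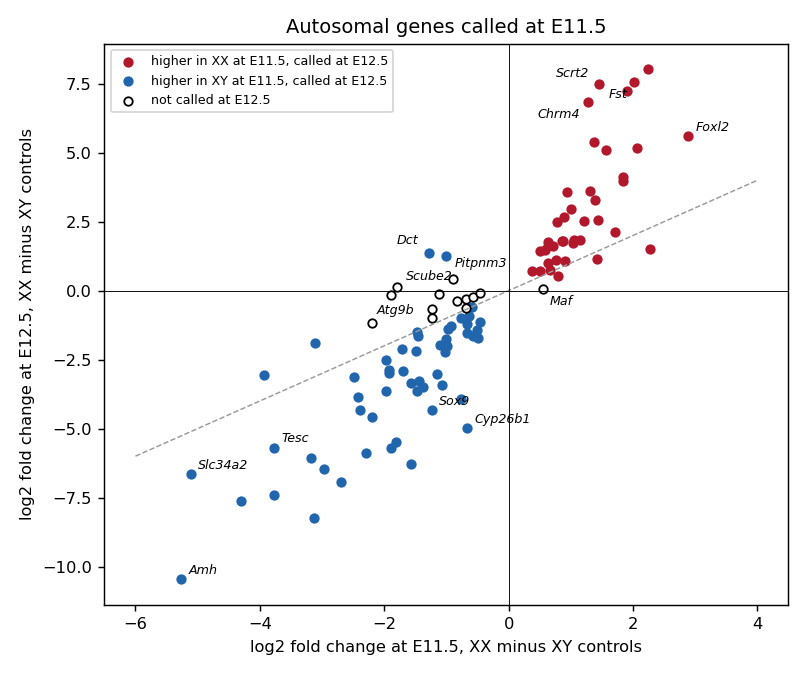
Log2 fold change of XX minus XY controls at E12.5 (vertical axis) against that at E11.5 (horizontal axis) for the 106 autosomal genes called at E11.5 and tested at E12.5; filled points were called at E12.5 and the dashed line marks equal values. Most points lie farther from 0 at E12.5, Dct and Pitpnm3 change sign, and Maf lies near 0 at E12.5.

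The same genes were then read between XX and XY embryos that lack miR-17~92, at E11.5. There, 3 autosomal genes were called (0.0219% of those tested): Chrm4, Nmd3 and Tgm3. Chrm4 stood at 19.6, 29.7 and 22.2 CPM in XX KO and 11.4, 7.79 and 10.97 CPM in XY KO libraries (1.24, FDR = 0.0491), beside a control difference of 1.28. Of the 40 genes higher in XX controls, 38 had the same sign in the KO, with a median of 0.39, and 1 was called. Of the 67 genes higher in XY controls, 30 had the same sign, the median was 0.04, and edgeR, DESeq2 and limma voom called 0, while 2 had an unadjusted edgeR p under 0.05. DESeq2 called 5 and limma voom 2 of the 40. The genes had been chosen by their difference in the controls, so these counts carry no test.

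The difference between the 2 sex differences was tested for every gene, and 5 genes (0.0352%) passed an FDR of 0.05: Cbln4, Atg9b, Adamts16, Cyp26b1 and Asns. Without XY control 2 the number was 228, and without XY control 1 it was 40. Cbln4 was level in the KO, with 4.76, 3.27 and 4.52 CPM in XX KO and 4.74, 4.97 and 2.87 CPM in XY KO, and the difference between controls and KO was -2.37 (SE 0.33, FDR = 0.0100). The KO differences of Amh and Dhh were -0.19 (FDR = 0.941) and 0.02 (FDR = 0.992), and their tests against the controls did not pass, at -5.07 (SE 1.28, FDR = 0.215) and -3.79 (SE 0.84, FDR = 0.171). Foxl2 remained at 1.02 (FDR = 0.155) in the KO and did not pass either, at 1.87 (SE 0.37, FDR = 0.0908).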

How the data were processed

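Total RNA of gonads with mesonephros was sequenced by the authors from stranded libraries. Reads were mapped to mm10 and counted with featureCounts of Subread, per the study's methods and the submitters' processing notes; tool versions, the annotation and the strand setting are not given in the sources used here. The deposited values are raw counts per gene, not normalized.

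A gene was tested if 2 or more libraries of its stage reached 1 CPM (14217 of 21699 genes) with edgeR 4.0.16 in R 4.3.3: trimmed mean of M values, robust quasi-likelihood fit with 1 mean per genotype over 12 libraries, FDR under 0.05. The SE is the size of the log2 fold change over the root of F. CPM are given on scaled library sizes. E12.5 was fitted alone on its 12 libraries, of 11877379 to 44155275 reads. Alternatives were DESeq2 1.42.0, limma voom with quality weights (limma 3.58.1), other scalings and filters, a replicate block, and each control library left out. The fit was also run on simulated counts in which no library was made to stand apart. That run says nothing of the dependence on XY control 2.

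Positions are GENCODE M21 (GRCm38, matched by gene ID for 21579 genes); for chromosomes, 119 more were matched to RefSeq by symbol. Named genes are the 10 largest changes each way, all genes called in every leave-one-out fit, called members of the lists, a set of sex determination genes, and, for XY control 2, 5 genes each way called without it but not with all libraries (at least 5 CPM) and 5 each way where it stood farthest from both other XY controls (at least 20 CPM). Dct, Pitpnm3, Lefty1, Lefty2, Chrm4, Etv2, Scarf2, Scube2, Nmd3, Tgm3, Rnase1 and Pnmt were named after their values were seen. The comparison, the genes and the lists were chosen with earlier results of these data known. A gene that the rule for XY control 2 also named is not reported here. The 12 columns of Foxl2 mutant tables were not used. Nothing states that libraries of 1 group came from separate litters, so p-values measure the spread between these libraries.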

Additional observations from a re-analysis of the deposited data

Results flagged for a closer look

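The sex difference of 5 named genes differed between controls and miR-17~92 KO at E11.5 by the interaction test of edgeR (FDR under 0.05). The difference of the 2 log2 fold changes, controls minus KO, was -2.37 (SE 0.33, FDR = 0.0100) for Cbln4, -2.16 (SE 0.31, FDR = 0.0138) for Atg9b, -1.72 (SE 0.23, FDR = 0.00928) for Adamts16 and -1.13 (SE 0.17, FDR = 0.0215) for Cyp26b1, all higher in XY controls, and 1.22 (SE 0.16, FDR = 0.00928) for Asns, higher in XX controls. Atg9b stood at 2.303, 2.17 and 2.77 CPM in XX KO and 1.56, 2.36 and 2.15 CPM in XY KO, and Adamts16 at 18.5, 20.2 and 15.7 CPM and 14.4, 16.2 and 14.6 CPM. Cyp26b1 stood at 59.9, 51.9 and 63.6 CPM in XX KO and 46.05, 42.2 and 39.2 CPM in XY KO, and Asns at 55.2, 45.1 and 49.8 CPM and 63.3, 56.6 and 48.2 CPM. The 4 groups of this test include the controls that chose the genes. Groups of 3 libraries were not searched for single outlying values.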

How the results depend on the processing

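The count of 107 autosomal DEGs was 84 with the 6 control libraries alone, 112 with DESeq2's size factors in edgeR, 94 with library size only, 130 with no filter on low counts (47.7% higher in XX, against 37.4%), 92 with at least 1 CPM in at least 6 libraries and 97 with at least 1.5-fold. DESeq2 called 414 and limma voom with quality weights 1880, and both included all 107. Voom's weight for XY control 2 was 0.268, the lowest of the 12. Without 1 control library the count ran from 46 to 2403, the latter without XY control 2. The 19 sex-linked DEGs ran from 10 to 92 without 1 library, and limma voom called 73. The 91 DEGs called in the same direction at E12.5 ran from 42 to 351 without 1 library, and were 202 with DESeq2 and 373 with limma voom. The 5 genes whose sex difference differed between controls and KO ran from 2 to 228 without 1 library, again highest without XY control 2 and 40 without XY control 1, and were 164 with DESeq2, 74 with limma voom and 14 with no filter. With a replicate block 97 autosomal genes were called, 84 of them among the 107, and the counts of sex-linked genes, genes shared with E12.5 and interactions were 16, 83 and 4. Deviations of same-numbered XX and XY controls correlated at 0.14, -0.13 and 0.11, and 1 of 3 XX controls correlated best with its own number, so the numbers were not taken to pair libraries. No called gene that is named changed direction under these alternatives; Gadd45g, not called, changed sign in 1. The cause of these changes was not tested.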
